A study of Mus musculus with 20 samples.

Results

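The 8 genes described here, Ogn, Dcn, Lum, Bgn, Fmod, Aspn, Prelp and Omd, encode small leucine-rich proteoglycans of the extracellular matrix. They were chosen by name, from probe sets that carry a single gene symbol, and all 8 were measured among 22180 genes with such a probe set. RNA came from the spinal cord of C57BL/6J mice aged 6–10 weeks, with 5 arrays per group, each taken to be 1 mouse. Control mice received saline or dexamethasone (Dex, 4 mg/kg, intraperitoneally), a synthetic agonist of the glucocorticoid receptor. Cx30GRko mice, in which Cre recombinase removes that receptor from cells expressing connexin 30, a gap junction protein of astrocytes, received the same injections. Tissue was taken 4 h later in all 4 groups. Arrays titled wt were read as control and those titled Tg as Cx30GRko. Whether the controls carry a floxed receptor allele or Cre was not given in the sources used here, and no pooling of animals was stated. Which cells of the cord and its coverings lost the receptor was not checked by these arrays.

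Small leucine-rich proteoglycans are secreted proteins whose curved repeat domain binds collagen and sets the diameter and spacing of its fibrils. Several also bind growth factors of the TGF-beta family. In the central nervous system they are made mainly by fibroblasts of the meninges and around vessels, and by the connective tissue of the nerve roots, rather than by neurons or astrocytes. Decorin (Dcn), biglycan (Bgn) and asporin (Aspn) form the class I proteins, lumican (Lum), fibromodulin (Fmod), prolargin (Prelp) and osteomodulin (Omd) are class II, and osteoglycin (Ogn), also called mimecan, is class III. In RNA from whole tissue, fewer cells of a type and less RNA per cell cannot be told apart.

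Values are log2 signals. They had been centred for each probe set within 2 sets of arrays, 12 arrays with replicate numbers 1 to 3 and 8 arrays with numbers 4 and 5. Levels thus cannot be compared between the sets, and differences are given for each set beside the pooled ones. Ranks, ranges and overlaps over arrays of both sets, given below, are positions relative to the mean of each array's own set. Cx30GRko Dex replicates 4 and 5 stood apart, their probe set values having SDs of 1.95 and 1.81 where the other arrays had 1.66 to 1.71. Nr3c1, the receptor gene, had means of 6.21 ± 0.50 (SD, n = 5) in the saline controls, 6.22 ± 0.08 in the Dex controls, 6.19 ± 0.21 in the saline Cx30GRko mice and 6.59 ± 0.70 in the Dex Cx30GRko mice. Whole cord RNA holds the receptor message of many cell types, and whether these probes lie in the removed part is not known, so Nr3c1 did not check the genotype labels.

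In RefSeq gene order the members fall into 3 groups of neighbours and 1 lone gene. Aspn, Omd and Ogn follow each other on chromosome 13, Dcn lies next to Lum on chromosome 10, and Prelp lies next to Fmod on chromosome 1. Bgn is on the X chromosome. The promoters of the chromosome 13 trio are shown because in replicates 1 to 3 Omd and Ogn moved together (r of 0.867) and Aspn had r of -0.25 with Ogn. In replicates 4 and 5 these values were -0.738 and -0.33, and a link to the promoters was not tested. Each line gives the 250 bases before the gene's start (RefSeq, GRCm38.p6, plus strand), at chr13:49607765-49608014 for Ogn, chr13:49582212-49582461 for Omd and chr13:49544193-49544442 for Aspn. Capitals mark matches, on either strand, to any of the motifs named after the sequences.

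Ogn: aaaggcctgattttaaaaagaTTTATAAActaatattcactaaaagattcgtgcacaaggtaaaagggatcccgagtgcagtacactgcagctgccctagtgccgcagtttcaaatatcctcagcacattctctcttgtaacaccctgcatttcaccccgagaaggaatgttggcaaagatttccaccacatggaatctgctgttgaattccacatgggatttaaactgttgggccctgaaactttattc

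Omd: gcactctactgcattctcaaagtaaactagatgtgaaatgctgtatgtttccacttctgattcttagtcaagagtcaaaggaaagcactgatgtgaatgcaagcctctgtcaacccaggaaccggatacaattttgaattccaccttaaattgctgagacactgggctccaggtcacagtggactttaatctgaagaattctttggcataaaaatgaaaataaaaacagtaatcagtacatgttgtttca

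Aspn: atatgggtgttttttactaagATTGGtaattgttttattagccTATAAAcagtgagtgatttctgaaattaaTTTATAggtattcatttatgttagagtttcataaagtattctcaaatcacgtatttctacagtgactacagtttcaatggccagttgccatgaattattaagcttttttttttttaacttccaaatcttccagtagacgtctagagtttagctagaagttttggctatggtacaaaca

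The motifs searched on both strands were the TATA box TATAAA, the CCAAT box, the AP-1 site TGANTCA and the core AGAACA of the glucocorticoid receptor site, alone or as an inverted pair with 3 bases between. Counted from the gene's start, TATAAA matched the Ogn promoter at -229 and -227, as overlapping matches on opposite strands, and the Aspn promoter at -207 and -178. The Aspn promoter also held a CCAAT box on the reverse strand at -229, and the Omd promoter held none of the motifs. Of 32851 mouse promoters of this length, 12.4% held TATAAA, 33.8% CCAAT, 6.75% the AP-1 site and 16.1% the receptor core. Among the 6 members in the promoter table the receptor core matched only Bgn, at -241, and CCAAT also matched Prelp, at -15. The inverted pair matched 0 of these 6 and 3 of all promoters (0.00913%). These matches are descriptions of the letters in the window.

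Among the class I genes, decorin (probe set 17236800) was one of the brighter members, with a mean of 7.61. From replicate 1 to 5, Dcn signals were 7.33, 8.17, 8.61, 8.68 and 8.28 in the saline controls and 8.24, 7.52, 5.62, 6.77 and 6.21 in the Dex controls. They were 8.28, 8.0, 6.39, 7.16 and 6.64 in the saline Cx30GRko mice and 6.10, 8.20, 8.82, 9.83 and 7.29 in the Dex Cx30GRko mice. Control saline arrays were all high except replicate 1, while each of the other groups held both high and low arrays, and all groups overlapped.

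Biglycan (probe set 17535558), which like decorin carries glycosaminoglycan chains, varied less. Bgn signals were 6.98, 7.39, 7.49, 6.40 and 7.72 in the saline controls, 7.33, 7.24, 6.31, 6.44 and 6.51 in the Dex controls, 7.30, 7.30, 6.67, 7.71 and 7.19 in the saline Cx30GRko mice, and 6.89, 7.23, 7.88, 7.71 and 7.65 in the Dex Cx30GRko mice. The 3 lowest control Dex arrays lay below every Cx30GRko Dex array, and the other 2 lay among them. Asporin (probe set 17287160), a decorin relative that binds collagen and TGF-beta, had group means of 4.34 ± 0.59 in the saline controls, 4.21 ± 0.39 in the Dex controls, 4.73 ± 0.59 in the saline Cx30GRko mice and 4.22 ± 0.46 in the Dex Cx30GRko mice. Its highest array was Cx30GRko saline replicate 4 (5.63) and its lowest Cx30GRko Dex replicate 4 (3.53), the array that was highest for Ogn and Dcn.

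Among the class II genes, lumican (probe set 17236811), the keratan sulfate proteoglycan known from the cornea, was the dimmest member at a mean of 3.29. With osteomodulin it lay below the median probe set signal of 4.34. Lum signals were 2.96, 3.21, 3.97, 3.36 and 3.06 in the saline controls, 2.90, 2.91, 1.92, 3.21 and 3.05 in the Dex controls, 3.72, 3.89, 2.59, 3.28 and 3.46 in the saline Cx30GRko mice, and 2.81, 3.87, 4.69, 3.80 and 3.07 in the Dex Cx30GRko mice. Control Dex replicate 3 lay below all others, and the groups overlapped.

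Fibromodulin (probe set 17217373), a regulator of collagen fibril maturation, had group means of 5.58 ± 0.34, 5.41 ± 0.45, 5.51 ± 0.48 and 5.33 ± 0.60 in the saline controls, the Dex controls, the saline Cx30GRko mice and the Dex Cx30GRko mice. Prolargin (probe set 17227077), which links basement membranes to the collagen beneath them, was the brightest member, with means of 7.82 ± 0.23, 7.66 ± 0.36, 7.77 ± 0.72 and 8.07 ± 0.49 in the same order. Osteomodulin (probe set 17287170), first known from bone, had means of 3.69 ± 0.53, 3.48 ± 0.49, 3.56 ± 0.35 and 3.69 ± 0.48. For each of these 3 genes the group means lay closer together than the arrays within at least 1 of the groups. Signals of different probe sets depend on the probes, so these levels do not rank the genes by transcript number.

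Osteoglycin, the class III member (probe set 17287175), covered the widest range of the 8, 6.66 on the log2 scale over the 20 arrays. Ogn signals were 6.92, 8.03, 8.26, 8.67 and 8.40 in the saline controls and 7.69, 6.48, 4.05, 5.21 and 5.40 in the Dex controls. They were 7.53, 7.47, 5.99, 5.47 and 5.29 in the saline Cx30GRko mice and 4.69, 7.62, 8.13, 10.71 and 6.11 in the Dex Cx30GRko mice. Control saline arrays were high, control Dex arrays were low except replicate 1, and the Cx30GRko Dex group held both the highest and the second lowest array of the study.

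**Figure D1:**
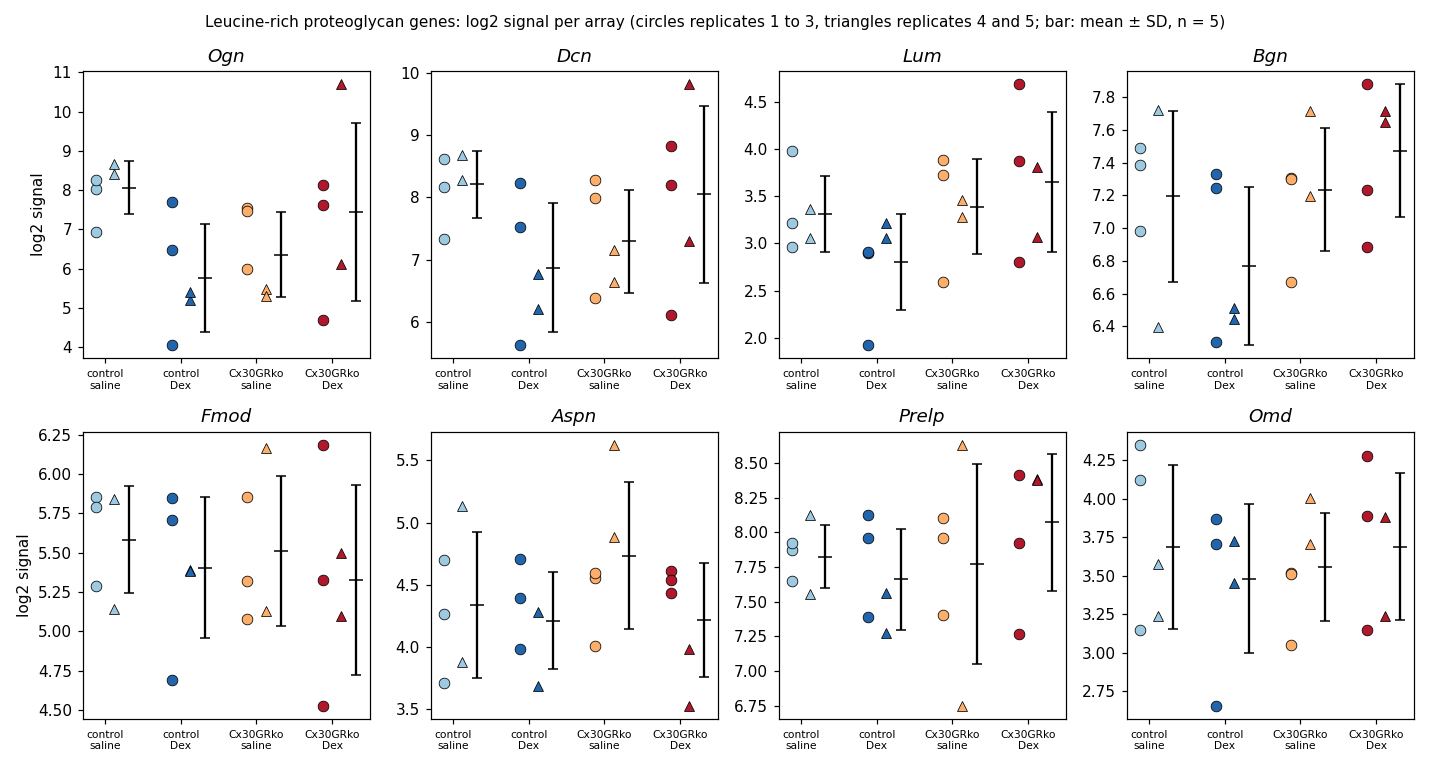
Log2 signal of each of the 8 genes (vertical axis) in the 4 groups (horizontal axis), 1 symbol per array, with circles for replicates 1 to 3, triangles for replicates 4 and 5 and bars for the mean ± SD (n = 5). Ogn and Dcn spread widely within groups, from 4.05 to 10.71 for Ogn, and no gene has groups without overlap between saline and Dex or between genotypes.

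The spread between arrays of a group set Ogn apart from all other genes. Its residual SD of 1.47 was the largest of all 22180 genes, and that of Dcn, 1.01, ranked 33. The median over all genes was 0.32, and the other 6 members lay between 0.45 and 0.55. Within the array sets the residual SD of Ogn was 1.43 (replicates 1 to 3) and 1.63 (replicates 4 and 5), against all-gene medians of 0.21 and 0.37. For Dcn the 2 values were 1.15 and 0.95. The spread of both genes was thus high in each set alone.

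Low and high arrays recurred across members. Control Dex replicate 3 was the lowest of all 20 arrays for Ogn, Dcn, Lum, Bgn and Omd and the second lowest for Fmod. Cx30GRko Dex replicate 3 was the highest for Lum, Bgn and Fmod, and Cx30GRko Dex replicate 4 was the highest for Ogn and Dcn. The mean deviation of the 8 genes from their means over all arrays was -1.11 on control Dex replicate 3 and -0.77 on Cx30GRko Dex replicate 1. It was 0.84 and 0.81 on Cx30GRko Dex replicates 3 and 4, so arrays of the same genotype and treatment lay at both ends. This mean, also used below for marker lists and like genes, was not scaled, so Ogn and Dcn weighed most in it. On Cx30GRko Dex replicate 4 the mean of Ogn and Dcn alone was 3.01 and that of the other 6 members 0.07. On Cx30GRko Dex replicate 3 they were 1.22 and 0.71.

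**Figure D2:**
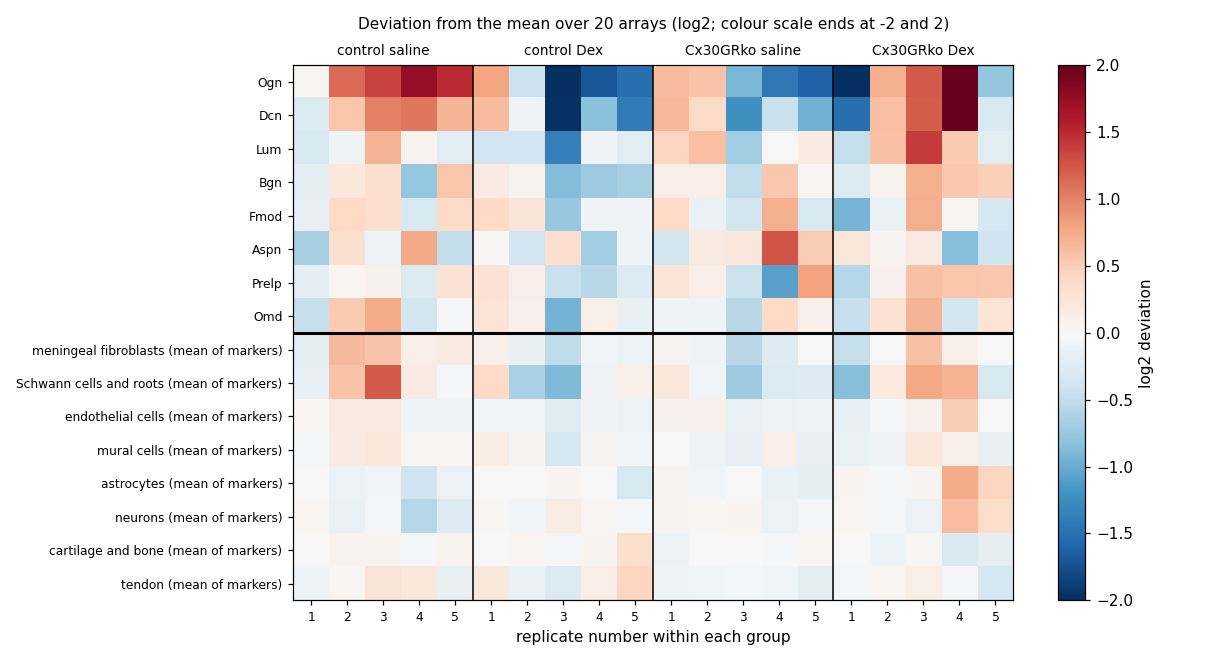
Deviation of each array (columns, by group and replicate number) from the mean over 20 arrays, on the log2 scale, for the 8 genes and for the mean of 8 cell type marker lists (rows). The colour scale ends at -2 and 2. Columns such as control Dex replicate 3 are blue, and Cx30GRko Dex replicate 3 red, across most of the proteoglycan genes and in the meningeal fibroblast and Schwann cell markers.

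The first comparison asked what Dex did in control mice. All 8 members had lower means with Dex, with a median difference of -0.32 on the log2 scale against 0.01 over all genes, and 0 of the 8 passed an adjusted p under 0.05 (limma, Benjamini-Hochberg over 22180 genes), a threshold that 0.0135% of all genes passed. Within the array sets 6 of 8 means were lower in replicates 1 to 3 (Aspn stood at 0.14 and Prelp at 0.01) and 7 of 8 in replicates 4 and 5 (Omd stood at 0.18). The second probe sets of Bgn, Fmod and Prelp had higher means with Dex, by 0.19, 0.17 and 0.12, and with the mean of each gene's probe sets the median was -0.17. Ogn had the largest difference, -2.29 ± 0.81 (SE, n = 5 per group; 95% confidence interval -3.96 to -0.62; limma adjusted p = 0.776), a 4.90-fold lower mean. Intervals, here and below, are for 1 gene at a time and are not adjusted over genes, unlike the adjusted p. Replicates 1 to 3 gave -1.67, replicates 4 and 5 gave -3.23, and 5 of 5 Dex arrays lay below the saline mean of their set. Dcn differed by -1.34 ± 0.56 (interval -2.50 to -0.18; limma adjusted p = 0.901), with -0.91 and -1.99 in the 2 sets and 4 of 5 Dex arrays below. Lum (-0.51 ± 0.31) and Bgn (-0.43 ± 0.26) followed, and Fmod, Aspn, Prelp and Omd lay between -0.21 and -0.13. Ogn and Dcn, 2 of 8, had an unadjusted p under 0.05, as did 5.16% of all genes. In the same comparison the median difference was -0.40 for markers of meningeal fibroblasts and -0.58 for those of Schwann cells and roots, and their part in the result was not tested. The saline and Dex arrays of control mice overlapped for all 8 members, while 1.24% of all genes did not overlap.

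In Cx30GRko mice, Dex arrays had higher means for 6 of the 8 genes and lower means for Fmod and Aspn. The median difference was 0.25, against 0.02 over all genes, and 0 of 8 passed the adjusted threshold, which 0.018% of all genes passed. Ogn stood at 1.10 ± 0.81 (interval -0.57 to 2.77; limma adjusted p = 0.642). Replicates 1 to 3 gave -0.18 and replicates 4 and 5 gave 3.03. Without the 2 arrays that stood apart the value was 0.46, and without Cx30GRko Dex replicate 4 alone 0.29. The sign and size of the pooled value thus rested on the second set. Values without both arrays, here and below, set Cx30GRko Dex arrays of replicates 1 to 3 against arrays of both sets. They do not compare like with like, as the values of replicates 1 to 3 do. Leaving out 1 array also weighs the sets unevenly. Dcn stood at 0.76 ± 0.56 (limma adjusted p = 0.644), with 0.16 and 1.66 in the 2 sets and 0.42 without those 2 arrays. Aspn stood at -0.51 ± 0.30 (limma adjusted p = 0.556), with 0.14 in replicates 1 to 3 and -1.50 in replicates 4 and 5. No member had an unadjusted p under 0.05, against 9.73% of all genes, and 0 of 8 had groups that did not overlap, against 1.53%.

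Whether Dex acted differently in the 2 genotypes was tested as the interaction. Neither any member nor any gene passed the adjusted threshold (0% called). The members' median was 0.57, and all genes had a median of 0.02. For Ogn the Dex effect was 3.39 ± 1.14 more positive in Cx30GRko than in control mice (interval 1.03 to 5.76; limma adjusted p = 0.846). Replicates 1 to 3 gave 1.48, replicates 4 and 5 gave 6.26, and the value was 2.75 without the 2 arrays that stood apart. For Dcn it was 2.10 ± 0.79 (limma adjusted p = 0.846), with 1.06 and 3.65 in the sets and 1.76 without those arrays. Lum (0.77 ± 0.45) and Bgn (0.66 ± 0.37) had the next largest values, Prelp and Omd stood at 0.47 and 0.34, Aspn at -0.39 and Fmod near 0. Ogn and Dcn were the 2 of 8 with an unadjusted p under 0.05, a share of 5.65% among all genes. The sign of the interaction was the same in both array sets for Ogn, Dcn, Lum, Bgn and Prelp.

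Between genotypes under saline, 3 members had higher and 5 had lower means in Cx30GRko mice, with a median of -0.06 against 0.01 over all genes. The direction of that median was not stable: it was -0.21 in replicates 1 to 3, with 5 of 8 lower, 0.16 in replicates 4 and 5, with 3 of 8 lower, and 0.02 with the mean of each gene's probe sets. Again 0 of 8 members and 0% of all genes were called. Ogn was lower by 3.26-fold, at -1.71 ± 0.81 (limma adjusted p = 0.914), with -0.74 and -3.15 in the array sets. Dcn stood at -0.92 ± 0.56 (limma adjusted p = 0.914) and Aspn at 0.39 ± 0.30 (limma adjusted p = 0.914), and the other 5 lay between -0.13 and 0.07. Ogn alone, 1 of 8, had an unadjusted p under 0.05, against 5.25% of genes, and 0 of 8 had groups that did not overlap, against 0.938%.

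Between genotypes under Dex, 7 of 8 means were higher in Cx30GRko mice. The median was 0.56, against 0.01 over all genes, with 0 of 8 members and 0% of genes called. Ogn stood at 1.69 ± 0.81 (limma adjusted p = 0.447) and Dcn at 1.18 ± 0.56 (limma adjusted p = 0.442). Lum stood at 0.85 ± 0.31 (limma adjusted p = 0.423) and Bgn at 0.71 ± 0.26 (limma adjusted p = 0.423). These 4 of 8 had an unadjusted p under 0.05, in a comparison in which 11.2% of all genes did. Their differences had the same sign in both array sets, with 0.74 and 3.11 for Ogn, 0.58 and 2.07 for Dcn, 1.21 and 0.30 for Lum, and 0.37 and 1.21 for Bgn. Without Cx30GRko Dex replicates 4 and 5, but with the control Dex arrays of both sets, they were 1.05, 0.84, 0.99 and 0.57 in the same order. Ogn stood at 0.87 without Cx30GRko Dex replicate 4 alone. A second, dimmer Bgn probe set had -0.34, and with the mean of each gene's probe sets the members' median was 0.19. Prelp (0.41), Omd (0.21), Aspn (0.01) and Fmod (-0.08) had smaller values, and for 0 of 8 members did the groups not overlap, against 1.28% of genes.

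The mean of both Dex effects was lower than 0 for 7 of 8 members, with a median of -0.15 against 0.02 over all genes. None of the 8 was called by limma, and 0.149% of genes were. Ogn stood at -0.60 ± 0.57 (limma adjusted p = 0.767) and Aspn at -0.32 ± 0.21 (limma adjusted p = 0.665), and 0 of 8 had an unadjusted p under 0.05, against 8.64% of genes. The 6 comparisons share arrays: each group enters several of them, so a low or high array moves more than 1 of these values.

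**Figure D3:**
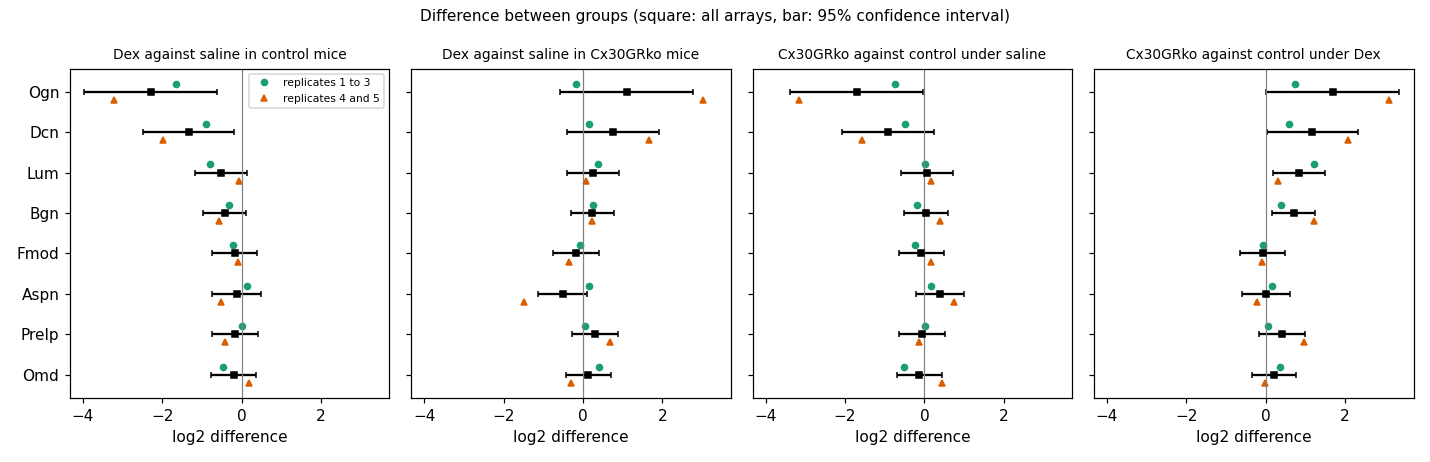
Log2 difference between groups (horizontal axis) for the 8 genes (vertical axis) in 4 comparisons, with squares for all arrays, bars for the 95% confidence interval, circles for replicates 1 to 3 and triangles for replicates 4 and 5. Ogn and Dcn lie lowest for Dex in control mice, at -2.29 and -1.34, and their values in replicates 4 and 5 lie farther from 0 than those in replicates 1 to 3 in each panel.

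Across arrays, Ogn and Dcn moved together. Pearson's r was 0.965 and Spearman's rho 0.956 over 20 arrays (permutation p = 1e-05, the smallest that 100000 resamples can give, and 0.00028 adjusted over 28 pairs for both), and r was 0.945 without the 2 arrays farthest from the Ogn median. Replicates 1 to 3 gave an r of 0.971 and replicates 4 and 5 one of 0.976 (exact permutation p = 0.000372, adjusted p = 0.0104), where rho was 0.905 (exact permutation adjusted p = 0.128). These genes lie on different chromosomes and have separate probe sets.

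The other pairs were counted in each array set, and the difference between the sets, of 12 and 8 arrays, was not tested. In replicates 1 to 3, 21 of 28 pairs had r above 0.5, the same number had an adjusted permutation p under 0.05 for r, and 20 did for rho. In replicates 4 and 5, 3 pairs had r above 0.5 (Ogn with Dcn, Ogn with Lum at 0.571 and Dcn with Lum), and 1 pair passed for r and 0 for rho by the exact permutation test over 8 arrays. All these permutations moved arrays across the 4 groups, so shared group differences add to r. The p-values also make no allowance for members chosen with earlier results known. With group and set means removed, the median r was 0.572, 15 of 28 pairs lay above 0.5, and Ogn with Dcn had 0.962. The 21 pairs without Aspn had a median r of 0.874 in replicates 1 to 3 (from 0.663 to 0.971) and of 0.276 in replicates 4 and 5 (from -0.738 to 0.976). Of 4 pairs of members that lie next to each other, r had opposite signs in the sets in 3 and was positive in both for Dcn and Lum. Omd and Ogn had r of 0.867 in replicates 1 to 3 and -0.738 in replicates 4 and 5, Prelp and Fmod 0.920 and -0.550, Aspn and Omd -0.03 and 0.28, and Dcn and Lum 0.851 and 0.623.

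The 7 pairs with Aspn had r from -0.28 to -0.03 in replicates 1 to 3, from -0.46 to 0.28 in replicates 4 and 5 and from -0.40 to 0.09 over 20 arrays. Of the genes flanking the trio, Ecm2, next to Aspn, had r of -0.33 with it over 20 arrays (0.02 and -0.64 in the sets), and Nol8, next to Ogn, had -0.37 with Ogn (-0.08 and -0.50). Kera, which follows Lum, had 0.24 with Lum (0.16 and 0.86), and Optc, next to Prelp, had -0.62 with Prelp (-0.41 and -0.69). These values are descriptions over the same arrays.

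**Figure D4:**
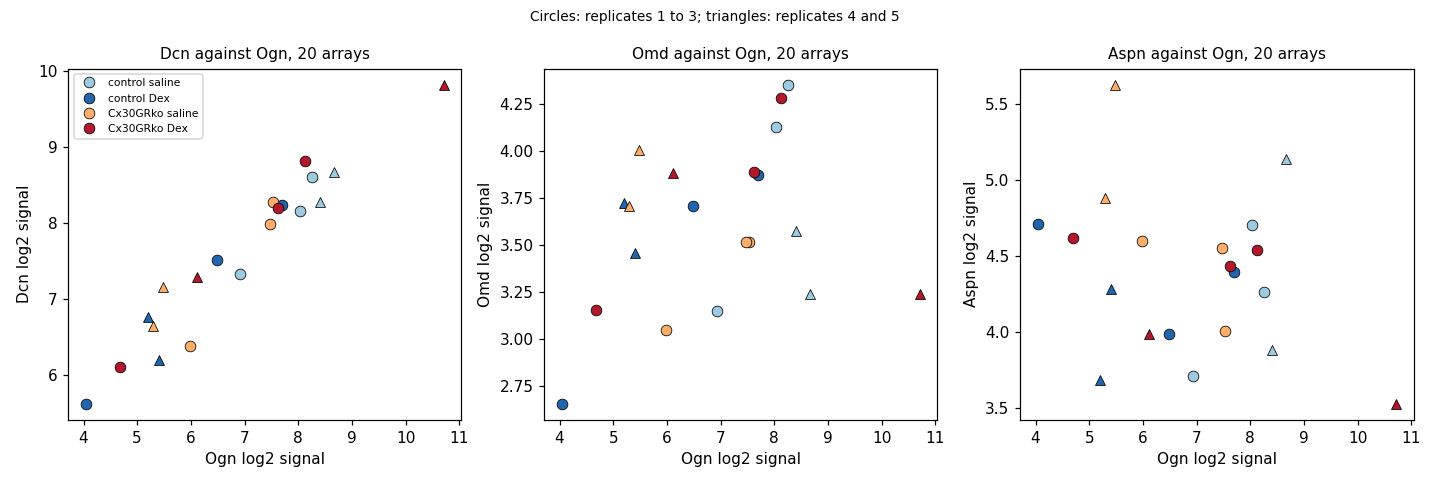
Log2 signal of Dcn, Omd and Aspn (vertical axes) against that of Ogn (horizontal axes), 1 symbol per array, with circles for replicates 1 to 3, triangles for replicates 4 and 5 and colours for the 4 groups. The r with Ogn among circles and among triangles is 0.971 and 0.976 for Dcn, 0.867 and -0.738 for Omd, and -0.25 and -0.33 for Aspn.

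Over 20 arrays, markers of meningeal fibroblasts moved with these genes, as did those of nerve roots, endothelium and mural cells given below. The 29 markers of meningeal fibroblasts, a list without the 8 members, were all measured, and 8 of them lay below the median probe set signal. Their mean level was 5.68 in the saline controls (5.22 to 6.06), 5.27 in the Dex controls (4.90 to 5.52), 5.24 in the saline Cx30GRko mice (4.86 to 5.46) and 5.45 in the Dex Cx30GRko mice (4.94 to 5.99). With Dex in control mice 26 of the 29 had lower means, with a median of -0.40 and 0 called. In Cx30GRko mice 19 had higher means, with a median of 0.20 and 0 called. Across arrays their mean deviation had r of 0.81 with that of the 8 genes over 20 arrays, 0.893 in replicates 1 to 3 and 0.585 in replicates 4 and 5. On control Dex replicates 3, 4 and 5 it was -0.51, -0.05 and -0.10, where that of Ogn and Dcn was -2.42, -1.27 and -1.45. On Cx30GRko Dex replicates 3 and 4 it was 0.58 and 0.11, where that of Ogn and Dcn was 1.22 and 3.01. Among the marker lists, the endothelial one had the highest r in replicates 4 and 5, at 0.717.

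Markers of Schwann cells and nerve roots, 12 of 14 measured, ran the same way. Their mean level was 6.03 in the saline controls (5.52 to 6.91), 5.46 in the Dex controls (4.80 to 6.07), 5.46 in the saline Cx30GRko mice (4.96 to 5.89) and 5.79 in the Dex Cx30GRko mice (4.84 to 6.47). Dex in control mice had a median difference of -0.58 over the list, with 11 of 12 lower and 0 called, and in Cx30GRko mice of 0.46, with 9 of 12 higher and 0 called. For Pmp22, a protein of peripheral myelin, the control difference was -0.93 ± 0.41 (limma adjusted p = 0.940). For Ranbp3l, in the meningeal list, it was -1.44 ± 0.56 (limma adjusted p = 0.856). The part of root and meningeal tissue in the differences of the 8 genes was not tested.

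The r of the other marker lists with the genes is given for each array set, and the difference between the sets was not tested. The mean deviation of the 8 genes had r of 0.75 with endothelial markers and 0.757 with mural cell markers over 20 arrays (0.849 and 0.875 in replicates 1 to 3, 0.717 and 0.413 in replicates 4 and 5). For border macrophage markers the first set gave r of 0.871 and the second -0.187, and for tendon markers they gave 0.720 and -0.337. Neuron markers had -0.761 and 0.218, astrocyte markers -0.425 and 0.498, and cartilage and bone markers 0.146 and -0.700. On Cx30GRko Dex replicates 4 and 5 the astrocyte and neuron lists were high while the proteoglycan mean was high on replicate 4 only. Over 20 arrays r was 0.234 with 12 oligodendrocyte markers, -0.02 with 13 of microglia, 0.024 with 14 of skeletal muscle, -0.327 with 10 of adipocytes, -0.535 with 10 of sensory ganglion neurons, 0.279 with 9 of ependyma and 0.156 with 8 of choroid plexus. Of the erythrocyte markers 1 of 10 was measured. All these correlations share the same arrays and normalization and are given without p-values.

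**Figure D5:**
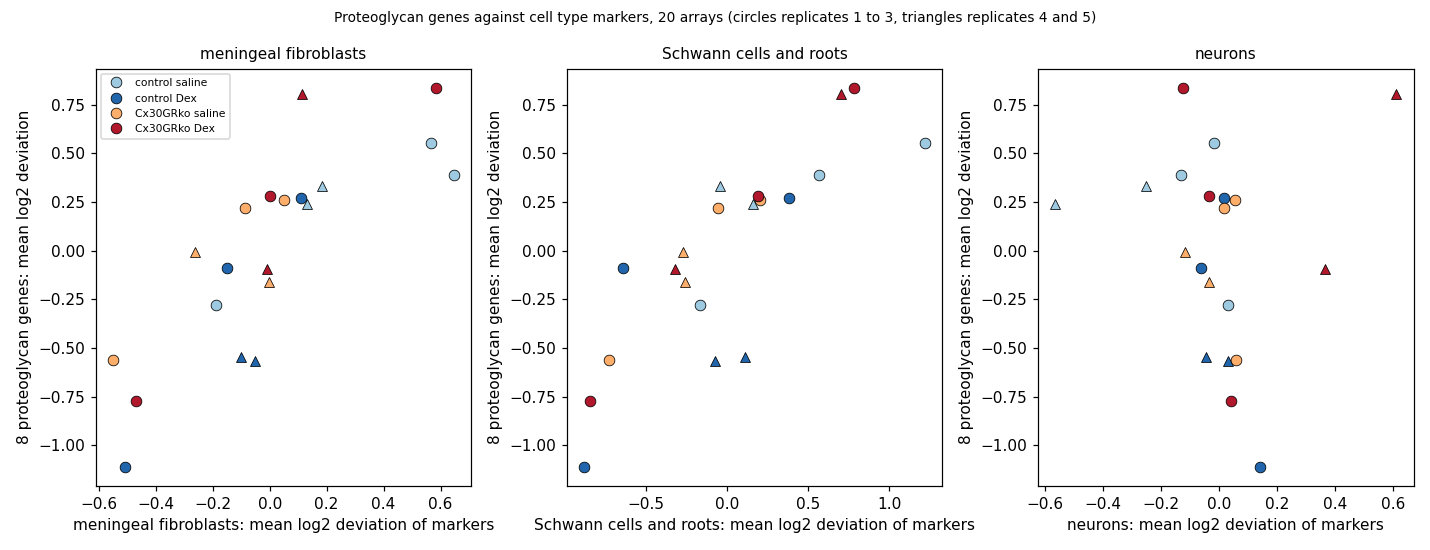
Mean log2 deviation of the 8 genes (vertical axes) against that of the markers of meningeal fibroblasts, Schwann cells and roots, and neurons (horizontal axes), 1 symbol per array, circles for replicates 1 to 3 and triangles for replicates 4 and 5. The points rise together for meningeal and Schwann cell markers (r of 0.81 and 0.83 over 20 arrays), and neuron markers run the opposite way among the circles (-0.761) but not among the triangles (0.218).

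The genes most like the members in both array sets were sought by the lower of the 2 within-set correlations with their mean. Of 22172 other genes, 7 had a value above 0.8 and 278 (1.25%) above 0.5. The top 10 were Nid1 (0.861), Gpc6 (0.858), Vwf (0.839), Serping1 (0.828), Pmp22 (0.814), H2-Aa (0.805), Igf1 (0.805), Thbd (0.794), Gas2l3 (0.786) and Smurf2 (0.761). Nid1 encodes nidogen 1, a basement membrane protein, Gpc6 a glypican, and Vwf the von Willebrand factor of endothelium. Nid1 had means of 7.09, 6.20, 6.52 and 6.91 in the saline controls, the Dex controls, the saline Cx30GRko mice and the Dex Cx30GRko mice, the same order as Ogn. Among the 29 meningeal markers, 5 (17.2%) had values above 0.5, Serping1, Ranbp3l, Ccn3, Aldh1a2 and Fn1. Others lay near 0, such as Col1a2 (0.06) and Col3a1 (0.02), or below it. The lowest were Crabp2 (-0.635), Tbx18 (-0.436), Mgp (-0.290), Aldh1a1 (-0.287) and Slc6a20a (-0.245), which ran against the members in 1 of the sets.

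Genes of the wider matrix pathway were read from lists. In the Dex effect of control mice the median was -0.14 for 9 other leucine-rich proteoglycans, 0.15 for 17 other secreted proteoglycans, -0.01 for 30 genes of sugar chain assembly, -0.17 for 27 fibrillar collagen and cross-linking genes, -0.07 for 20 processing proteases and inhibitors and -0.10 for 24 ligands and receptors that the proteoglycans bind. None of these genes was called in that comparison. In Cx30GRko mice the medians were -0.02, 0.12, 0.01, 0.06, 0.14 and 0.11, and again 0 were called. Col6a1, a chain of collagen VI, which decorin and biglycan bind, had the smallest control p of the collagen list, at -0.96 ± 0.27 (limma adjusted p = 0.552). Timp1, an inhibitor of matrix metalloproteases, stood at 0.68 ± 0.18 (limma adjusted p = 0.517) and the protease gene Htra1 at 0.73 ± 0.21 (limma adjusted p = 0.552), in a list with 7 means higher and 13 lower. Adamts4, an aggrecan-cleaving protease, stood at -0.48 ± 0.15 in control and in Cx30GRko mice alike (limma adjusted p = 0.625 and 0.470). The interaction of Timp1 was -0.85 ± 0.26 (limma adjusted p = 0.846). Ecm2, a leucine-rich matrix gene beside Aspn, had an interaction of 0.78 ± 0.27 (limma adjusted p = 0.846), and Optc, beside Prelp, one of -1.0 ± 0.53 (limma adjusted p = 0.846). Of the 9 other leucine-rich proteoglycans, 5 had positive and 4 had negative interactions.

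The 1 gene of these lists that was called was Tgfb3, the growth factor TGF-beta 3. It is a ligand of the family that decorin, biglycan and asporin bind. Tgfb3 was 1 of 24 genes of its list and was called in the mean of both Dex effects, as were 0.149% of all genes. From replicate 1 to 5 it had log2 signals of 6.05, 6.05, 5.98, 5.81 and 5.63 in the saline controls and 6.45, 6.50, 6.80, 6.60 and 6.87 in the Dex controls. They were 5.99, 5.63, 5.81, 5.66 and 6.10 in the saline Cx30GRko mice and 6.78, 6.48, 6.02, 6.34 and 6.69 in the Dex Cx30GRko mice. Every control Dex array lay above every control saline array, and 1.24% of all genes had no overlap between these groups. In Cx30GRko mice only Dex replicate 3 lay below a saline array. Tgfb3 rose by 0.68 ± 0.11 in the mean of both Dex effects (limma adjusted p = 0.00631). Replicates 1 to 3 alone gave 0.59 and replicates 4 and 5 alone 0.82, and with fewer arrays neither was called (limma adjusted p = 0.0973 and 0.325). The effects were 0.74 ± 0.16 in control and 0.62 ± 0.16 in Cx30GRko mice, neither called alone (limma adjusted p = 0.122 and 0.431), and their difference was -0.12 ± 0.22 (limma adjusted p = 0.943).

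Bgn, Fmod and Prelp each had a second probe set, and the brighter one was used. The 2 probe sets did not move together, with r over 20 arrays of 0.15 for Bgn, 0.09 for Fmod and -0.47 for Prelp. The second Bgn probe set (17542364) had a Dex difference of 0.19 in control mice, where the brighter one had -0.43, and a genotype difference under Dex of -0.34, where the brighter one had 0.71. Values for these 3 genes depend on the probe set, and with the mean of each gene's probe sets the members' median was -0.17 for Dex in control mice, 0.12 for Dex in Cx30GRko mice and 0.24 for the interaction. Ogn, Dcn, Lum, Aspn and Omd had 1 probe set each.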

How the data were processed

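Spinal cord RNA was labelled with an Affymetrix whole-transcript kit, and the authors deposited 1 table of log2 probe set values for 20 arrays. The submitters' processing notes name oligo. Its version, the normalization, the build and the annotation are not given in the sources used here. All arrays had a mean of 4.64. For every probe set the means of replicates 1 to 3 and of replicates 4 and 5 were equal (largest difference 4.54e-09, against a median of 0.107 for a split within replicates 1 to 3), so the deposited log2 values were centred within these sets.

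A single gene symbol was paired with 23521 of 41345 probe sets, several symbols with 1814 and no symbol with 16010. For the 1082 genes with several probe sets the brightest was used. The fit held 1 mean for each group over the 20 arrays, with limma 3.58.1 in R 4.3.3 (16 residual and 5.663 prior degrees of freedom, no block), with two-sided p-values adjusted over 22180 genes and called under 0.05. Permutation tests used scipy 1.17.1 in Python 3.11.15. The fitting code was tested on simulated data. Dim probe sets were kept. The number of arrays limits precision.

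The members, the matrix lists and the marker lists were chosen with earlier results of these data known, so no list was tested. The lists were other leucine-rich proteoglycans, other secreted proteoglycans, sugar chain assembly, collagens, proteases, ligands and receptors, and markers of meningeal fibroblasts, mural, endothelial, Schwann, sensory ganglion, astrocyte, oligodendrocyte, neuron, microglia, border macrophage, erythrocyte, skeletal muscle, adipocyte, cartilage and bone, tendon, ependymal and choroid plexus cells. Genes named are the 8 members, called list genes and up to 4 per list and comparison with the smallest p, the 10 most like the members, and genes next to a member. Alternatives were blocks for array set or replicate number, single array sets, array weights, other normalization, filters, probe set rules, a stricter threshold and leaving out arrays. Same-numbered arrays were not paired in the main fit. The mean correlations of their deviations were -0.111, -0.104, -0.115, -0.093 and -0.059 for numbers 1 to 5. Centring within the array sets pushes correlations between arrays of 1 set below 0, so these values cannot decide whether the arrays were paired.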

Additional observations from a re-analysis of the deposited data

Results flagged for a closer look

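Of 32 sets of 5 arrays (8 genes in 4 groups), 1 held an array far from the others. Control Dex replicate 3 had a Lum signal of 1.92, and the other 4 control Dex arrays lay between 2.90 and 3.21. The gap took up 0.760 of the group's range, above the limit of 0.71 for 5 samples. Chance alone gives about 1 such set in 20. The same array was the lowest of all 20 for Ogn, Dcn, Bgn and Omd. Without it the Dex difference of Lum in control mice was -0.29, and with it -0.51.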

How the results depend on the processing

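No member that was tested passed the adjusted threshold in any of the 6 comparisons under any alternative, with a count of 0 of 8, or 0 of 6 where the filter on dim probe sets was used. Of 20 arrays, 0 correlated best with their own number. The centring lowers correlations within a set, so this count cannot decide a pairing. With the replicate number as a block, Ogn had a limma adjusted p of 0.9996 for Dex in control mice and 0.9465 for the interaction. That block changed no call of a member. Leaving out 1 array in turn, Ogn ranged from -2.77 (without control Dex replicate 1) to -1.86 (without control Dex replicate 3) for Dex in control mice, and its interaction from 2.58 (without Cx30GRko Dex replicate 4) to 4.08 (without Cx30GRko Dex replicate 1). Array weights gave Ogn 0.24 for Dex in Cx30GRko mice and 2.11 for the interaction. Signs of members' differences, none of them called, changed in 7 of 254 recomputed values for Dex in control mice, 6 of 254 in Cx30GRko mice, 14 of 246 for the interaction, 19 of 254 and 10 of 254 between genotypes under saline and under Dex, and 12 of 246 for the mean effect. Many of these values could not change. A block, the filter on dim probe sets or leaving out an array of a group outside the comparison moves no difference. The shares are therefore no measure of stability. With the mean of a gene's probe sets the members' medians were -0.17, 0.12, 0.24, 0.02, 0.19 and -0.10 for Dex in control mice, Dex in Cx30GRko mice, the interaction, genotype under saline, genotype under Dex and the mean effect, and that for genotype under saline thus turned from -0.06 to above 0. The Tgfb3 call held under every alternative but the array sets taken alone, with adjusted p from 0.00193 to 0.028 elsewhere. Lum and Omd lie below the median signal, and a filter there removed them from the test and left 12573 genes.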
